A study of Mus musculus with 4 samples.

Results

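The CXC chemokines Cxcl1, Cxcl2, Cxcl3, Cxcl5 and Ppbp, their receptor gene Cxcr2, the colony-stimulating factor (CSF) genes Csf1, Csf2 and Csf3, and the receptor gene Csf3r were followed in RNA-seq of the mouse neck region. These 10 genes were chosen by symbol, and each symbol matched 1 of the 38087 genes in the deposited table of read counts. Total RNA depleted of ribosomal RNA was sequenced on an Ion Torrent instrument from 4 libraries. The 2 KO libraries (labelled Becn1-M-KO) came from C57BL/6 mice of postnatal week 20 with a myeloid-specific deletion of Becn1, the gene of the autophagy regulator Beclin-1, and the series calls this tissue B cell lymphoma. The 2 WT libraries came from wild-type C57BL/6 mice of the same age and were labelled cervical lymph node. All 4 libraries carry the same tissue label, and the effects of the deletion and of a tumour cannot be told apart in this design. The driver of the deletion is not given in the sources used here. Nothing in the labels states that replicates were taken from different mice, and each p-value below rests on the variation among these 4 libraries, possibly technical in part.

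Chemokines with the glutamate-leucine-arginine motif before their first cysteines bind the receptor CXCR2 on neutrophils and draw these cells out of the blood. Granulocyte CSF, encoded by Csf3, drives neutrophil production and release from bone marrow through the receptor encoded by Csf3r. Macrophage CSF (Csf1) maintains monocytes and macrophages, and granulocyte-macrophage CSF (Csf2) activates several myeloid cells. Stromal cells, epithelium and macrophages make most of these ligands after interleukin, tumour necrosis factor or Toll-like receptor signals.

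Depth was 15604247 and 20067004 reads in KO replicates 1 and 2, and 16141605 and 17874699 reads in WT replicates 1 and 2. Levels are given in CPM, reads per 1e6 reads, either of the library total or of the total scaled by TMM factors, which correct for libraries dominated by a few genes. A count of 0 allows up to 3 reads, which is 0.192 and 0.149 CPM of the library total in the KO libraries and 0.186 and 0.168 CPM in the WT libraries. WT replicate 1 stood apart from the others. Its 8 B cell markers summed to 26.6 CPM of the library total and its 8 T cell markers to 1.98, against 2625 and 2518 (B cell) and 416 and 406 (T cell) in KO, and 1543 and 486 in WT replicate 2. The 12 epithelial and salivary markers summed to 29.5 and 385 CPM in KO and 34897 and 6884 CPM in WT. By these markers the library labelled WT replicate 1 goes against its lymph node label, and it may hold largely another tissue. It is kept as labelled, so a KO value set against it may compare tissues as well as genotypes. Becn1 stood at 49.4 and 53.2 CPM with TMM scaling in KO and 54.7 and 63.3 CPM in WT (log2 fold change −0.20, SE 0.21, edgeR adjusted p = 0.557), a whole-tissue level that does not check a deletion in myeloid cells. Xist, the X-inactivation RNA of females, had 3 and 34 reads in KO and 2088 and 5314 in WT, and the Y-linked gene Eif2s3y had 767 and 1083 in KO and 1 and 6 in WT, so sex and genotype cannot be told apart either.

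With edgeR's quasi-likelihood test across 20695 genes and Benjamini-Hochberg adjustment, 216 genes (1.04%) were higher and 451 (2.18%) were lower in KO at an adjusted p under 0.05. Of the 10 chemokine and CSF genes, 7 passed the filter on low counts, and Cxcl1 and Cxcl5 rose. Cxcl1, Cxcl2, Cxcl5 and Csf3 had under 10 reads in each WT library and passed the filter through their KO reads alone. The filter thus gave them little chance of being lower, and the counts that follow do not stand for all 10 genes. At an unadjusted p under 0.05, 6 of the 7 were higher, against 10.5% of all tested genes, and none was lower, against 16.4%. DESeq2 called 4 of the 7 higher (Cxcl1, Cxcl5, Csf3 and Csf3r), in a fit that called 6.4% of all genes higher and 11.7% lower, and limma-voom called 2 (1.21% of all genes higher, 1.95% lower); neither called any lower. With WT replicate 1 left out 6 passed as higher (21.6% of all genes), and with WT replicate 2 left out 6 passed (33.2% of all genes). Both fits with 1 WT library took their spread from the KO libraries, so these calls say nothing of the WT spread. Both KO libraries stood above both WT libraries for 6 of the 7 tested genes, all but Cxcr2. Of all tested genes, 34.3% shared that pattern with TMM scaling and 51% in CPM of the library total. Fewer cells of a type and less RNA per cell cannot be told apart in these bulk samples.

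**Figure D1:**
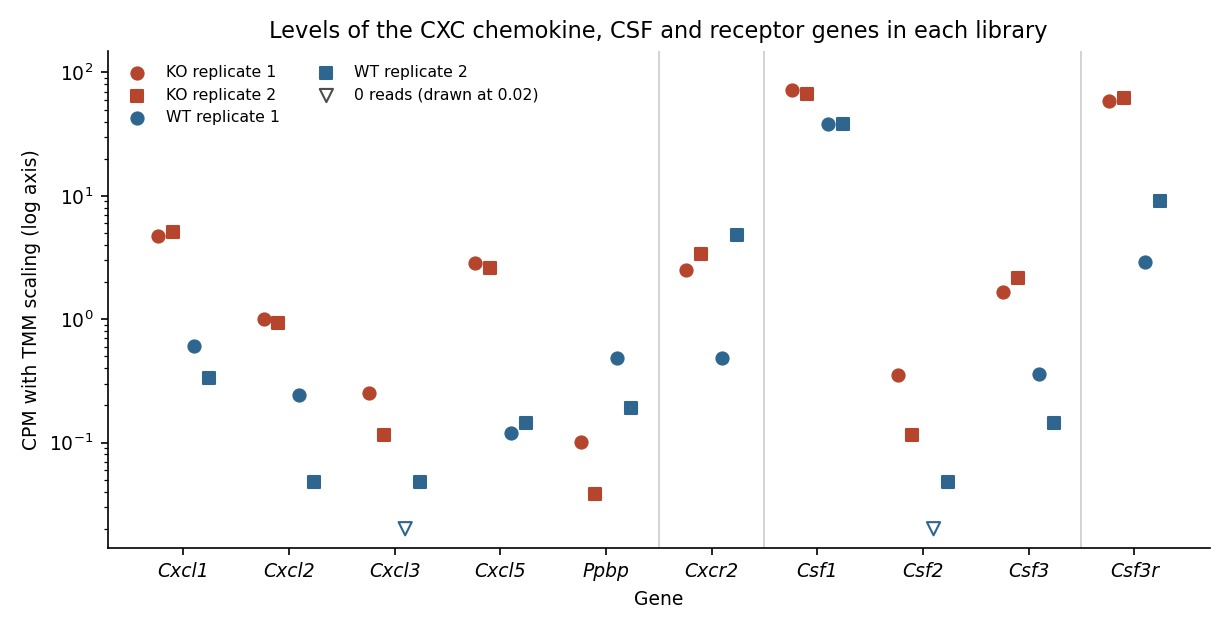
Level of each gene in each library, in CPM with TMM scaling on a log axis, with red for KO and blue for WT and open triangles for 0 reads. Cxcl1 and Cxcl5 lie at 2.61 CPM or more in both KO libraries and at 0.603 CPM or less in both WT libraries, while for Cxcr2 the highest and the lowest library are both WT.

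Among the genes of CXCR2 ligands, Cxcl5 and Cxcl1 rose. Cxcl5, a chemokine made largely by epithelial and stromal cells in other tissues, lies on the plus strand of chromosome 5 from 90759299 to 90761625 (mm10, as all gene positions here). It had 57 and 68 reads in the KO libraries and 1 and 3 reads in the WT libraries, or 2.86 and 2.61 CPM against 0.121 and 0.143 CPM with TMM scaling. The groups were far apart, and the WT values were at or below the level that 3 reads give. The log2 fold change was 4.27 (SE 0.44, edgeR adjusted p = 0.0456), the largest of the 7 tested. By summed reads, 125 in KO and 4 in WT, the ratio to the library totals was 29.8 with a 95% counting interval of 11.4 to 111. Its call was lost with library totals (edgeR adjusted p = 0.066), with a replicate block (0.0754) and with either KO library left out. No tested gene passed in any of those settings, so the loss is not particular to Cxcl5.

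Cxcl1, a chemokine that macrophages, stroma and endothelium release early in inflammation, spans 90891241 to 90893115 on the same chromosome. It had 94 and 132 reads in KO and 5 and 7 reads in WT. Its levels of 4.72 and 5.08 CPM in KO and 0.603 and 0.333 CPM in WT did not overlap. Cxcl1 rose by a log2 fold change of 3.46 (SE 0.45, edgeR adjusted p = 0.0494). That p lies just inside the threshold. The call was lost with DESeq2 size factors (adjusted p = 0.0521) and with library totals (0.0625), and the 7 alternatives that used all libraries gave adjusted p-values between 1.39e-05 (DESeq2) and 0.0852 (replicate block). It was also lost with either KO library left out. No tested gene passed in those fits, nor with library totals or the replicate block.

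Cxcl2, the closest neighbour of Cxcl1 and a chemokine of activated macrophages, spans 90903899 to 90905909. It had 20 and 24 reads in KO, against 2 and 1 in WT. Both KO values lay above both WT values, and the log2 fold change was 3.06 (SE 0.74) without passing the test (edgeR adjusted p = 0.104). By summed reads the ratio to the library totals was 14.0, with a 95% counting interval of 4.48 to 70.4. The log2 fold change was 4.18 against WT replicate 2 alone and 1.94 against WT replicate 1 alone, each resting on 1 or 2 WT reads.

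Cxcl3, which encodes a further CXCR2 ligand, lies between 90786103 and 90788086 and was too rare to test. It had 5 and 3 reads in KO and 0 and 1 in WT, a ratio of 7.63 with a counting interval of 1.02 to 339. That ratio lay between 4.01 (without WT replicate 1) and 10.9 (without KO replicate 2) with 1 library left out. Ppbp, the platelet basic protein gene whose cleaved product attracts neutrophils, lies at 90768518 to 90770060 and was the ligand with fewer reads in KO. It had 2 and 1 reads in KO and 4 in each WT library, a ratio of 0.358 with an interval of 0.0611 to 1.49, so no difference was detectable at this depth. With KO replicate 1 left out it was 0.212, and without KO replicate 2 it was 0.545. These intervals cover counting error only.

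Within a library, the mix of the 5 ligands can be compared without any scaling. In the KO libraries they summed to 178 and 228 reads, of which Cxcl1 made 52.8% and 57.9% and Cxcl5 made 32.0% and 29.8%. In WT they summed to 12 and 16 reads, with Cxcl1 at 41.7% and 43.8% and Ppbp at 33.3% and 25.0%. The KO libraries were alike in this mix, and the WT shares rest on few reads.

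The 5 ligand genes lie in 1 cluster of 147 kb, which also holds Pf4, the platelet factor gene, and Cxcl15, a chemokine gene of mouse lung epithelium. Some neighbours in the cluster went the same way and others did not. Cxcl1 and Cxcl2 both had more reads in KO, with 226 against 12 in WT and 44 against 3. Cxcl5 and Ppbp start 9.2 kb apart, yet Cxcl5 had 125 KO reads against 4 WT reads and Ppbp 3 against 8. Pf4 had 17 and 31 reads in KO and 8 and 54 in WT (log2 fold change −0.84, SE 0.59, edgeR adjusted p = 0.411). Cxcl15 had 1 read in each KO library and 5 and 20 in WT, the direction of the epithelial markers. Pf4 and Cxcl15 are named here as the remaining protein-coding genes of the cluster, not for their values.

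**Figure D2:**
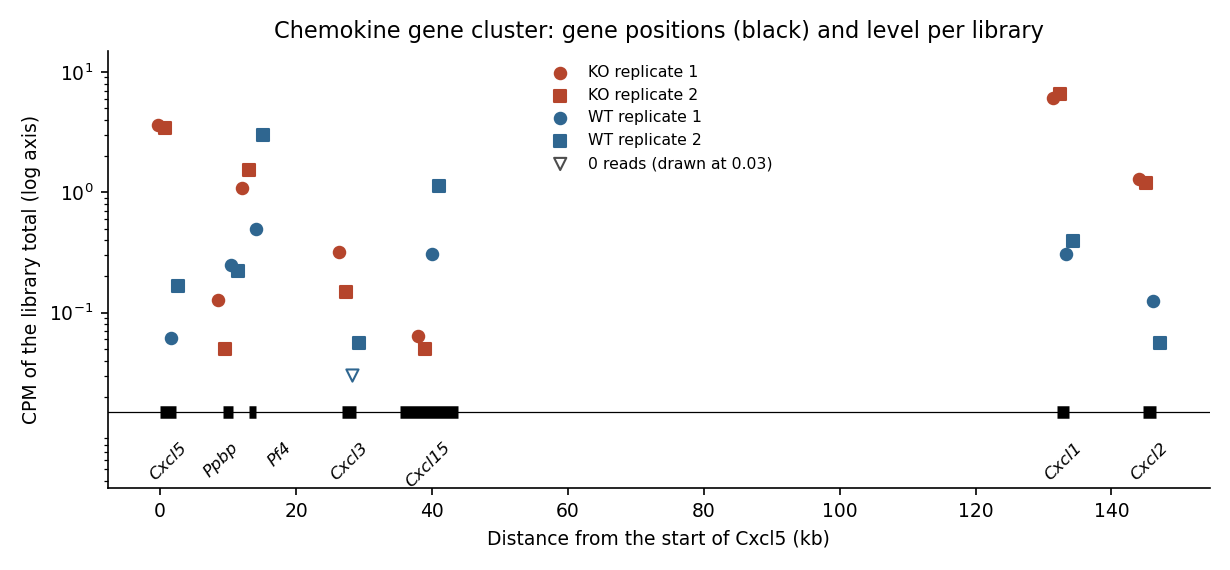
Protein-coding genes of the chemokine cluster (black blocks, kb from the start of Cxcl5) with each library's level above its gene in CPM of the library total on a log axis, points set side by side for legibility. Cxcl5, Cxcl3, Cxcl1 and Cxcl2 have both KO libraries above both WT libraries, Ppbp and Cxcl15 have both below, and Pf4 overlaps.

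The promoters of these genes were compared because several ligands had high KO values together. Windows of 250 bases before the start, from RefSeq (GRCm38.p6), were read for 8 of the 10 genes, all but Cxcl5 and Csf3. The RefSeq start lies 109 bases inside the counted gene for Csf3r and 232 bases before it for Csf2, and within 5 bases of the counted gene's start for the other 6. The letters GGG, any 2 bases, then TTTCC, a form of the site bound by the inflammatory transcription factor NF-kB, were searched on both strands. They occurred in 4 of these 8 windows (Cxcl1, Cxcl2, Cxcl3 and Csf1) and in 1.41% of all 32851 windows. Cxcl1, Cxcl2 and Cxcl3 lie in 1 cluster and their windows are alike, so the 4 are not separate cases. The windows of the 3 chemokines follow with those letters in capitals, to show how alike the arrangement is.

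Cxcl1, chr5:90890995-90891244, plus strand: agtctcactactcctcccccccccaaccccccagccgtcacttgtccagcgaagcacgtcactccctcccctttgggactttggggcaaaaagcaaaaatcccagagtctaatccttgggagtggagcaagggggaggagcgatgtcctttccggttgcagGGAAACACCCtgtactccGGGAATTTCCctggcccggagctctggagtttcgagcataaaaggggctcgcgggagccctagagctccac
Cxcl2, chr5:90903649-90903898, plus strand: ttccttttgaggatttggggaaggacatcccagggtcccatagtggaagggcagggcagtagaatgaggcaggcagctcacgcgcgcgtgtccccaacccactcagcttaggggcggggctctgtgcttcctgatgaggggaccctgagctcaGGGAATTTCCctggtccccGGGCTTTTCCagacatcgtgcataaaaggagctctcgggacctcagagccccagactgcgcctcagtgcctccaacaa
Cxcl3, chr5:90785851-90786100, plus strand: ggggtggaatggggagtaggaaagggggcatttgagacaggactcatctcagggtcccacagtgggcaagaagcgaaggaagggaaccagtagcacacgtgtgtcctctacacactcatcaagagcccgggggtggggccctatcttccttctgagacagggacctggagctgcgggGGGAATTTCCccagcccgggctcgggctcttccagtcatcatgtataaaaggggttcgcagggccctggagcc

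All 3 windows hold the identical run GGGAATTTCC on the gene strand, whose first base lies 71 bases before the start in Cxcl1, 97 in Cxcl2 and 73 in Cxcl3. Cxcl1 and Cxcl2 each hold a second match, 89 bases before the start on the other strand in Cxcl1 and 78 bases before it on the gene strand in Cxcl2, neither overlapping the first. Csf1 holds 1 match on the other strand, 154 bases before its start. On both strands as well, the AP-1-like letters TGANTCA occurred only in the window of Ppbp (6.75% of all windows) and the C/EBP-like letters TTGCNNAA only in that of Csf2 (9.56% of all windows). A match is a description of the letters and not of binding, and Cxcr2 and Csf3r held none of the 3 patterns in these windows.

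The transcripts also differ in AU-rich elements, sequences through which the decay factor tristetraprolin shortens the life of cytokine mRNA. The letters TTATTTATT were searched in the sense strand of the 3′ untranslated region (GENCODE M21, 1 transcript a gene). They occurred in 4 of the 10 genes, among them the cluster neighbours Cxcl1, Cxcl2 and Cxcl3, and in 6.98% of 21021 protein-coding genes. Counted with overlaps allowed, Cxcl2 and Csf2 held 4 copies each, Cxcl1 held 2 and Cxcl3 held 1. The longest repeat of the ATTTA pentamer was in Csf2 on chromosome 11, shown here because it is the longest of the set, with the whole repeat in capitals.

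Csf2, 3′ untranslated region, chr11:54247329-54247349, minus strand (GRCm38): ATTTATTTATTTATTTATTTA

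Csf2, which carries that repeat, was close to the limit of detection. It spans 54247271 to 54249667 on the minus strand of chromosome 11 and had 7 and 3 reads in KO, against 0 and 1 in WT. The ratio was 9.54 with a counting interval of 1.36 to 414. It was 5.01 without WT replicate 1, 5.09 without KO replicate 1 and 15.3 without KO replicate 2. The gene overlaps Gm12223 on the opposite strand, which had 6 and 4 reads in KO and 0 and 3 in WT, so some of these few reads may not be its own. The other 9 genes overlapped no gene of the table.

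Csf3, the granulocyte CSF gene, spans 98701263 to 98703629 on chromosome 11. It had 33 and 56 reads in KO, against 3 in each WT library. The groups did not overlap at 1.66 and 2.15 CPM in KO and 0.362 and 0.143 CPM in WT (TMM). Its log2 fold change was 3.09 (SE 0.58), past the threshold by DESeq2 (adjusted p = 0.00963) and short of it by edgeR (adjusted p = 0.0739). The highest adjusted p among the 7 alternatives that used all libraries was 0.132. Set against WT replicate 2 alone the value was 3.70, and against WT replicate 1 alone 2.37.

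Csf1 was the most abundant of the 3 CSF ligands and had the smallest difference. This gene spans 107741048 to 107760469 on the minus strand of chromosome 3 and had 1437 and 1729 reads in KO, against 315 and 798 in WT. With TMM scaling that is 72.1 and 66.5 CPM in KO and 38.0 CPM in each WT library. With this scaling the WT libraries were nearly equal although most lymphocyte genes differed greatly between them. In CPM of the library total they were not, and Csf1 stood at 19.5 and 44.6 in WT and at 92.1 and 86.2 in KO. Its log2 fold change was 0.87 (SE 0.20), which did not pass the test (edgeR adjusted p = 0.0939), and lay between 0.81 and 0.93 with any 1 library left out. With library totals it was 1.47, in a scaling that moved the median of all genes from 0.010 by 0.59.

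**Figure D3:**
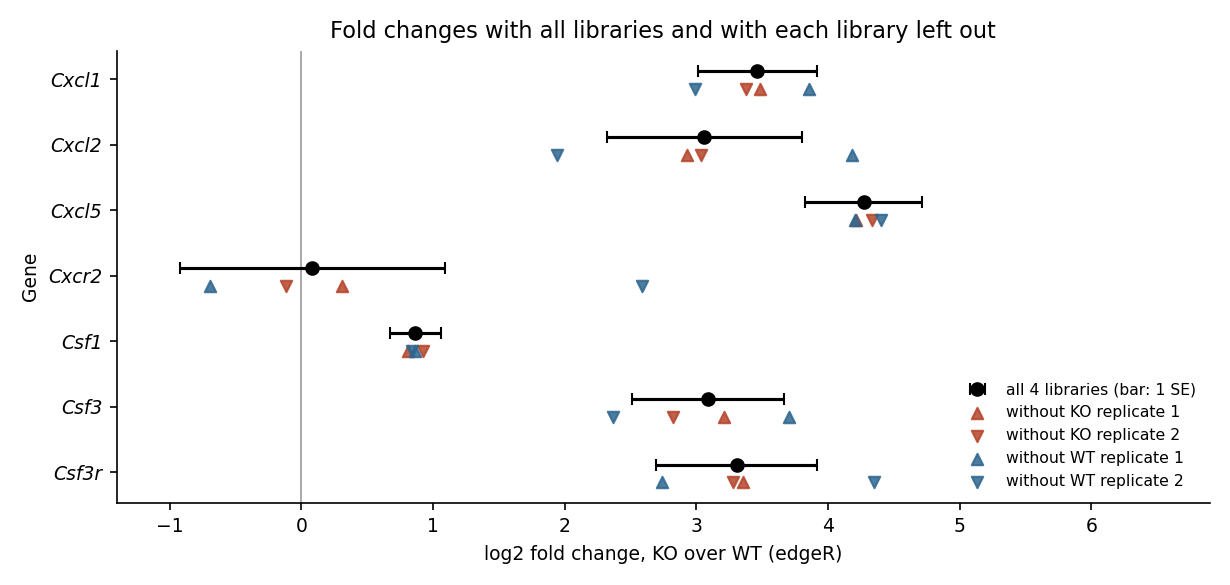
Log2 fold change of KO over WT for the 7 tested genes (black points with bars of 1 SE) and the values with each library left out (triangles). Cxcl5 and Csf1 move least, and Cxcr2 ranges from −0.69 (WT replicate 1 left out) to 2.59 (WT replicate 2 left out).

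The receptor genes did not move alike. Csf3r, the granulocyte CSF receptor gene of the neutrophil lineage and some monocytes, spans 126024550 to 126044440 on the plus strand of chromosome 4. It had 1167 and 1602 reads in KO, against 24 and 189 in WT. Its levels were 58.6 and 61.6 CPM in KO and 2.89 and 9.0 CPM in WT (TMM), with no overlap and a wide gap between the WT libraries. Its log2 fold change was 3.31 (SE 0.61), past the threshold by DESeq2 (adjusted p = 1.48e-05) and by edgeR with no count filter (adjusted p = 0.0358), and short of it by edgeR with the filter (adjusted p = 0.0731). Set against WT replicate 2 alone it was 2.74, and against WT replicate 1 alone 4.35.

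Cxcr2, the receptor of all 5 chemokines, spans 74153989 to 74161238 on the plus strand of chromosome 1. It had 50 and 88 reads in KO, against 4 and 101 in WT. Its KO levels of 2.51 and 3.38 CPM lay between the WT levels of 0.482 and 4.81 CPM (TMM). The log2 fold change was 0.09 (SE 1.01, edgeR adjusted p = 0.963), so no difference was shown and its error spans a change of either sign. Set against WT replicate 2 alone the value was −0.69, and against WT replicate 1 alone 2.59, so the WT library used decided the direction.

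The ratio of the receptor genes within a library needs no scaling. There were 23.3 and 18.2 Csf3r reads per Cxcr2 read in KO, against 6.0 and 1.87 in WT. Both KO ratios were above both WT ratios, the first of which rests on 4 Cxcr2 reads. Against Itgam, a pan-myeloid integrin gene chosen after the values were seen, the ratio of Csf3r reads was 0.683 and 0.722 in KO, against 0.316 and 0.374 in WT.

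Neutrophil markers were set beside the receptors. Of the 12 in the list, 8 were tested and 1 rose, Lcn2, which encodes lipocalin-2 and is also made outside neutrophils (1843 and 2479 reads in KO, 34 and 53 in WT, log2 fold change 4.85, SE 0.35, edgeR adjusted p = 0.0435). At an unadjusted p under 0.05, 3 were higher and 1 was lower, against 10.5% and 16.4% of all tested genes. Among the 3 higher, Ly6g had 10 and 20 reads in KO and 0 and 2 in WT. Mpo had 14 and 15 reads in KO and 1 and 5 in WT. Both passed the filter through their KO reads alone, which gave them little chance of being lower. The lower one was Ltf, the lactoferrin gene of neutrophil granules and glandular secretions, with 15 and 21 reads in KO and 38 and 164 in WT (log2 fold change −2.99, edgeR adjusted p = 0.056). The list median was 1.78, against 0.01 over all tested genes, and 1.46 without WT replicate 1 and 3.88 without WT replicate 2. Summed, the 12 neutrophil markers stood at 143 and 152 CPM of the library total in KO, against 5.08 and 24.2 CPM in WT. Without Lcn2, left out after the values were seen, the 11 others summed to 24.7 and 28.7 CPM in KO and 2.97 and 21.2 CPM in WT. Ltf made 9.18 of that last value, and without Lcn2 and Ltf, also chosen after the values were seen, the remaining 10 summed to 23.8 and 27.7 CPM in KO and 0.620 and 12.03 CPM in WT. Both KO libraries were above both WT libraries in these sums, as for Csf3r and unlike Cxcr2. Such an order was common when scaled by library totals, with 51% of all tested genes showing it. It therefore does not tie these markers to Csf3r in particular. In WT replicate 1, 6 of the 12 markers were at 0 reads, among them Ly6g, S100a8 and S100a9. The part of neutrophil number in the Csf3r result was not tested.

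**Figure D4:**
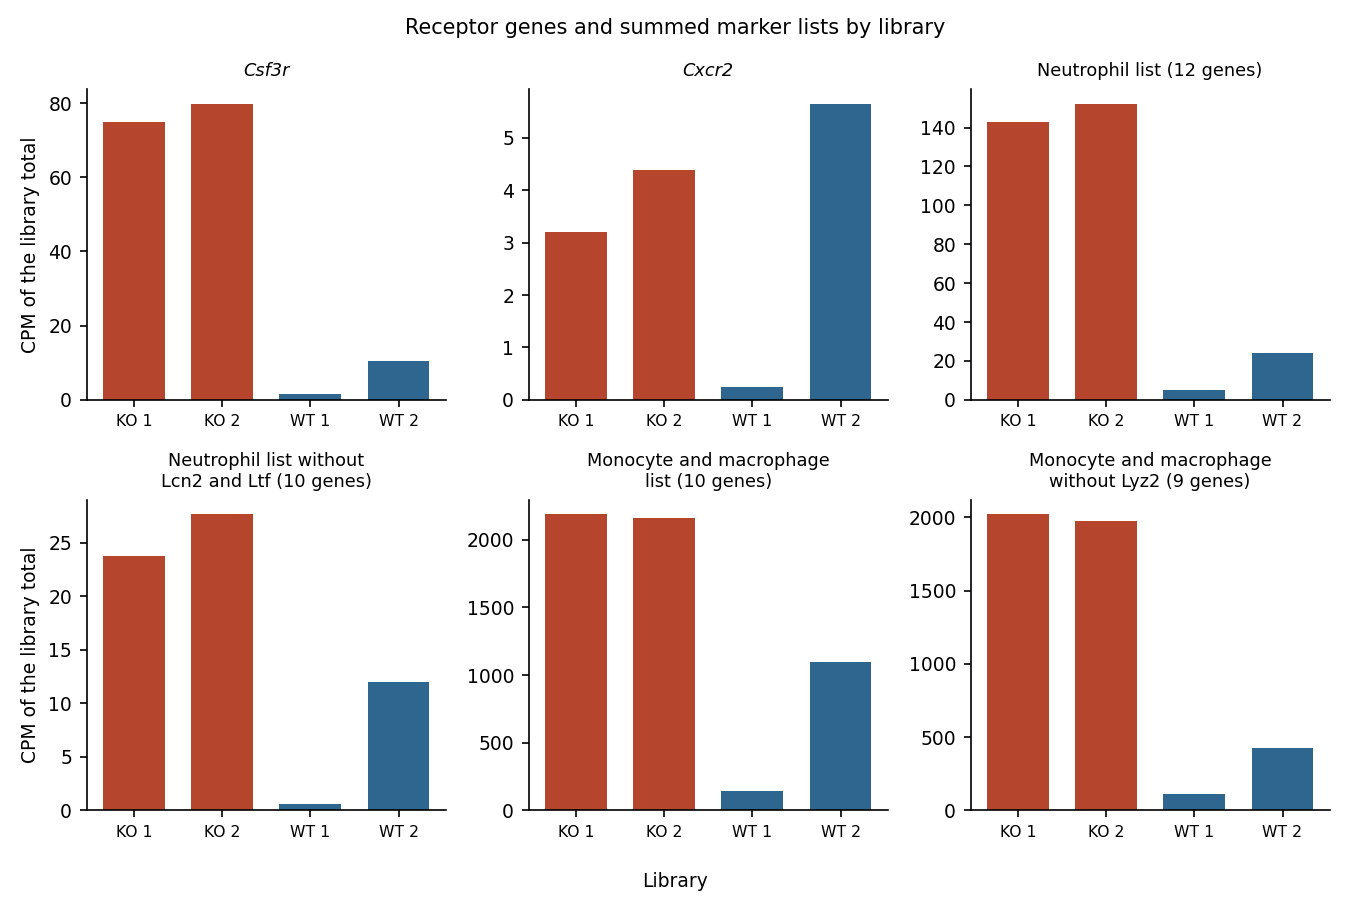
Bars show CPM of the library total in each library for Csf3r, Cxcr2, the summed neutrophil markers with and without Lcn2 and Ltf, and the summed monocyte and macrophage markers with and without Lyz2 (each axis from 0). Csf3r stands at 74.8 and 79.8 CPM in KO and 1.49 and 10.6 CPM in WT, while WT replicate 2 stands above both KO libraries for Cxcr2 and at 12.03 CPM, below 23.8 and 27.7 CPM in KO, for the neutrophil markers without Lcn2 and Ltf.

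Monocyte and macrophage markers were compared in the same way. All 10 were tested and 1 rose, Fcgr1, which encodes the high-affinity IgG receptor (log2 fold change 2.0, SE 0.27, edgeR adjusted p = 0.0497). With DESeq2 size factors 0 of the 10 passed, while DESeq2 called 9 higher, in a fit that called 6.4% of all genes higher. Of the 10 values 9 were positive, against 50.5% of all tested genes, with a median of 2.37. At an unadjusted p under 0.05, 8 were higher and 0 lower, against 10.5% and 16.4% of all tested genes. These shares apply to the lists below as well. Their sum was 2187 and 2163 CPM of the library total in KO, against 141 and 1093 in WT. Lyz2, the lysozyme gene, made 666 CPM of the sum in WT replicate 2 and was the 1 gene with a negative value (log2 fold change −1.18, edgeR adjusted p = 0.519). Without Lyz2, left out after the values were seen, the other 9 summed to 2021 and 1975 CPM in KO, against 110 and 427 in WT. Ratios that set Csf1 against 2 macrophage genes were lower in both KO libraries, by a margin that differed by the gene used. There were 0.167 and 0.176 Csf1 reads per read of Csf1r, its receptor gene, in KO, against 0.761 and 0.320 in WT, while per read of the macrophage gene Mertk there were 0.827 and 0.724 in KO, against 0.921 and 0.947 in WT. Csf1r itself had a log2 fold change of 2.26 (SE 0.53, edgeR adjusted p = 0.101), and both genes were chosen after the values were seen.

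Other possible sources were checked by their markers. None of the 8 fibroblast markers passed by edgeR at the adjusted threshold (median 1.11), and 5 were higher and 1 lower at an unadjusted p under 0.05, where 10.5% of all tested genes were higher and 16.4% lower. Pdgfrb, the platelet-derived growth factor receptor of pericytes and fibroblasts, had a log2 fold change of 1.27 (SE 0.23), Col1a2 of 1.65 (SE 0.40) and Lum, a matrix proteoglycan gene, of −3.25 (SE 0.45). The 8 endothelial markers had a median of 0.16 with 0 passing (1 higher and 2 lower at an unadjusted p under 0.05). Epithelial markers went the other way from Cxcl5 and Cxcl1, with all 12 values negative, a median of −7.94 and 5 of 12 lower, among them Pigr, the polymeric immunoglobulin receptor (54 and 181 reads in KO, 14531 and 16001 in WT). Of the 10 platelet markers 7 were tested and 0 passed by edgeR, with 1 lower at an unadjusted p under 0.05, and their sum was 51.3 and 46.2 CPM of the library total in KO, against 7.37 and 62.4 in WT. The B and T cell lists had 0 of 8 tested members passing each, and 0 at an unadjusted p under 0.05. Several medians depended on the WT library. Against WT replicate 2 alone and WT replicate 1 alone they were −0.32 and 6.65 for T cells, 0.83 and 7.83 for B cells, −0.35 and 0.91 for endothelium and −0.89 and 0.60 for platelets. The part of any of these cells in the chemokine results was not tested.

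Partners of the pathway were counted from fixed lists. Among 10 partners of the CXCR2 system (further receptors, decoy receptors and the CXCL12 axis), 8 were tested and 0 passed by edgeR, with 1 lower at an unadjusted p under 0.05, and the median was 0.19. The median was 0.05 against WT replicate 2 alone and 2.23 against WT replicate 1 alone. The gene lower at the unadjusted p was Cxcl17, a mucosal chemokine gene, with 5 and 7 reads in KO and 748 and 296 in WT (log2 fold change −7.60, SE 1.27, edgeR adjusted p = 0.0651). Cxcl12, which retains neutrophils in the marrow through CXCR4, had a value of 1.83 (SE 0.69, adjusted p = 0.198). Cxcr1, the second receptor of this family, had 5 reads in each KO library and 0 in both WT libraries and was not tested.

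Of 19 partners of the CSF system, 16 were tested and 2 rose, with 15 of 16 values positive, against 50.5% of all tested genes, and a median of 1.89. At an unadjusted p under 0.05, 8 were higher and 1 was lower, Il34, which encodes a further ligand of the macrophage CSF receptor (log2 fold change −1.72, edgeR adjusted p = 0.134). Csf2ra, the alpha chain of the granulocyte-macrophage CSF receptor, stood at 106 and 97.9 CPM in KO, against 14.0 and 20.2 CPM in WT (TMM), a log2 fold change of 2.57 (SE 0.29, edgeR adjusted p = 0.0467). By this test the receptor chain rose while its ligand gene Csf2 was near the limit of detection. Cebpb, a transcription factor of emergency granulopoiesis, rose by 2.11 (SE 0.26, edgeR adjusted p = 0.0483). With DESeq2 size factors 1 of the 16 passed as higher and with library totals 0. DESeq2 called 9 higher, in a fit that called 6.4% of all genes higher. The list median was 1.21 against WT replicate 2 alone and 2.82 against WT replicate 1 alone.

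Among 18 inducers of these chemokines and CSFs, 15 were tested and 2 rose, Il1b and Il1a, the interleukin-1 genes. Il1b had 1549 and 1651 reads in KO, against 17 and 40 in WT (log2 fold change 5.16, SE 0.26, edgeR adjusted p = 0.037). The list median was 1.08, and 13 of 15 values were positive, against 50.5% of all tested genes. At an unadjusted p under 0.05, 8 were higher and 1 was lower, Il17rc, an interleukin-17 receptor chain (log2 fold change −2.69, edgeR adjusted p = 0.0973). Il17a, a T cell cytokine that induces CXCR2 ligands in stroma, was near the limit of detection with 2 and 4 reads in KO and 0 and 1 in WT. Of 10 mRNA decay regulators, 0 passed by edgeR, with 3 higher at an unadjusted p under 0.05 and a median of 0.71. Zc3h12a, the RNase that degrades cytokine transcripts, had a value of 1.53 (SE 0.30, adjusted p = 0.0774).

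Levels of different genes were set in order per kilobase of exon (CPM with TMM scaling, GENCODE M21 exons). In KO the order was Csf3r (16.2 and 17.1), Csf1 (13.7 and 12.6), Cxcl1 (2.52 and 2.71), Cxcl5 (1.54 and 1.40), Csf3 (1.17 and 1.52), Cxcr2 (0.823 and 1.11), Cxcl2 (0.485 and 0.446) and Csf2 (0.439 and 0.144), with Ppbp and Cxcl3 under 0.1. Cxcl5 and Csf3 overlapped between libraries and so did Ppbp and Cxcl3, and other neighbours in this order did not. In WT, Csf1 led with 7.19 in each library, and Csf3r stood at 0.801 and 2.49. The listed gene lengths equal whole gene spans, so reads in introns may have been counted. Genes with long introns such as Csf1 and Csf3r may therefore stand too high on this scale. Cxcl3 may stand too low, because its listed span was 1984 bases and its GENCODE M21 exons cover 3498.

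Genes with the most similar pattern were found by the root-mean-square difference of centred log2 CPM over the 4 libraries, among 13656 named protein-coding genes. Nearest to Cxcl1 were Fcgr3 (0.12), Tbxas1 (0.13) and Nlrp3 (0.13). Nearest to Cxcl5 were Tarm1 (0.10), Gdpd3 (0.15) and Aoah (0.15). Csf3r was nearest to Fcgr2b (0.088), Socs3 (0.091) and Mpeg1 (0.093), while Cxcr2 was nearest to Arhgap15 (0.044), Inpp4b (0.068) and Oprd1 (0.076). Only 4 libraries enter each distance, so many genes lie close.

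The authors' deposited table of comparisons, which lists genes at an unadjusted p under 0.05, holds 6 of the 10 genes, all higher in KO, and lists 2482 of the 38087 genes (6.52%) as higher. In the authors' deposited table the log2 fold changes were 4.78 for Cxcl5, 3.96 for Cxcl2, 3.77 for Csf3, 3.56 for Csf3r, 3.48 for Cxcl1 and 0.91 for Csf1. These are the same 6 genes whose KO and WT libraries did not overlap among the 7 tested here. None of the 10 is in the authors' shorter lists of 86 higher and 71 lower genes.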

How the data were processed

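The authors deposited whole-number read counts per gene, not normalized, per the file headers. Build mm10 and DESeq2 1.62 stand in the submitters' processing notes with no role; no aligner or counter was named there. The listed gene length equals the whole genomic span in all 38087 genes, so intronic reads may be counted. The authors also deposited log2 values centred on each gene's median over the 4 libraries, and a table of log2 fold changes with unadjusted p-values. The 8 other per-sample columns were not used.

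The test was the quasi-likelihood test of edgeR 4.0.16 (R 4.3.3) with TMM scaling, the filterByExpr filter (count 10, total 15) and Benjamini-Hochberg adjustment over 20695 genes at 0.05, after a check on simulated counts. The SE was derived from the F statistic. Ratios of few reads carry exact binomial intervals at the 95% level. All 143 list entries matched a gene; the epithelial list also holds secretory genes of salivary gland.

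The genes, lists and motifs were chosen with earlier results of these data known. Named from each list were genes past the threshold (up to 5), or otherwise the 3 with the smallest p; not all are reported. The AU-rich search was added, and Ltf, Lyz2, Il34, Il17rc, Il17a, Muc10, Ly6g and Mpo were named, after the values were seen. Alternatives were DESeq2 size factors, library totals, no filter, a stricter filter, DESeq2 1.42.0, limma-voom 3.58.1, a replicate block and each library left out with the same genes tested.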

Additional observations from a re-analysis of the deposited data

How the results depend on the processing

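All 7 tested genes kept their direction in every alternative except Cxcr2, which had a log2 fold change of 0.09 with all libraries, −0.12 without KO replicate 2, −0.69 without WT replicate 1 and 2.59 when WT replicate 2 was left out. The number of these genes higher in KO was 2 with all libraries, 1 with DESeq2 size factors, 0 with library totals, 3 with no count filter, 4 with DESeq2 and 0 with the replicate block, and none was lower in any setting. With 1 library left out it ranged from 0 to 6. At the counts of 0, an unadjusted p under 0.05 was reached by 5 (library totals), 6 (block) and 4 (without either KO library). Over all genes, 216 higher and 451 lower became 0 and 0 with library totals (1482 and 1509 at an unadjusted p under 0.05), 542 and 1188 with no filter, 1325 and 2430 with DESeq2, and 0 and 0 with the replicate block (1866 and 2734). With 1 library left out the counts ranged from 0 to 6877 higher and from 0 to 6814 lower; both were 0 without either KO library, 4479 and 4783 without WT replicate 1, and highest without WT replicate 2. The group with 1 library is then assumed to vary like the other, so those calls say nothing of its own spread; the cause of these shifts was not tested.

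The replicate numbers share only a number: deviations of same-numbered libraries correlated at −0.108 across genes. A crossed pairing, chosen after seeing the data, gave 202 higher and 643 lower genes and 0 of the 10 (5 at an unadjusted p under 0.05). Library totals moved the median of all genes by 0.59. Cxcl2, Cxcl3, Cxcl5, Csf2, Csf3 and Ppbp had at most 8 WT reads in all, so depth limits their fold changes.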
